A study of Mus musculus with 24 samples.

Results

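The NADPH oxidase of phagocytes and the formation of neutrophil extracellular traps (NETs) were followed here through 8 genes, Cybb, Cyba, Ncf1, Ncf4, Rac1, Rac2, Padi4 and Hvcn1. These genes were chosen by symbol from the 48709 listed features, 8 of 8 were found, and 8 of 8 passed the filter on low values in every comparison. RNA had been sequenced from bone marrow neutrophils of C57Bl/6J mice that were cultured for 4 hours, in 24 libraries that fall into 6 groups of 4. Neutrophils were left untreated, or received LPS at 10 ng/mL with IFNγ at 2 ng/mL, IL4 at 20 ng/mL, IGF1 at 10 ng/mL, or insulin in a low dose of 10 and a high dose of 100 ng/mL. The study asked how IGF1 changes the state of neutrophils. LPS/IFNγ served as an inflammatory and IL4 as an anti-inflammatory stimulus. All groups share the strain, the Percoll density separation of the bone marrow and the culture, with no sorting step, and neither age nor sex is stated. Values are RPKM, read counts divided by exon length and sequencing depth, so a level can be compared between genes and is a share of its library.

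The oxidase is assembled on demand. NOX2, encoded by Cybb, and p22phox, encoded by Cyba, form the cytochrome of the membrane that passes electrons from NADPH to oxygen and so makes superoxide. In resting cells the cytosolic subunits, among them the organizer p47phox (Ncf1) and p40phox (Ncf4), wait apart from the membrane and join the cytochrome, together with a Rac GTPase, once the neutrophil is stimulated. The proton channel encoded by Hvcn1 carries the protons that balance the electron flow. Oxidants can trigger NETs, webs of chromatin and granule proteins that are cast out of the cell, and the histone-citrullinating enzyme PAD4 (Padi4) loosens chromatin in that process.

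On the GRCm38 assembly the genes lie at chrX:9435252-9487771 (Cybb, minus strand), chr8:122424776-122432930 (Cyba, minus), chr5:134220053-134229625 (Ncf1, minus), chr15:78244801-78262580 (Ncf4, plus), chr5:143503634-143528036 (Rac1, minus), chr15:78559167-78572783 (Rac2, minus), chr4:140745865-140774236 (Padi4, minus) and chr5:122206804-122242297 (Hvcn1, plus). Ncf4 and Rac2 are 296586 bases apart. Cyba, Ncf1, Rac1 and Hvcn1 overlap an annotated gene of the opposite strand, and no source used here says whether reads were counted by strand. The overlapping partners were low, at 3.44 to 6.79 RPKM for Gm20388 (Cyba), 10.98 to 17.2 RPKM for Gtf2ird2 (Ncf1), 0.493 to 4.00 RPKM for Daglb and 0 RPKM for Gm42502 (Rac1), and 0.530 to 1.44 RPKM for Tctn1 (Hvcn1).

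The reference table (RefSeq, GRCm38.p6) holds promoters of 4 of the genes, Padi4, Ncf1, Cyba and Cybb. The windows of Cybb, Ncf1 and Padi4, 250 bases before the start to the base before it, are shown because with LPS/IFNγ the log2 change from untreated was 0.02 for Cybb and -0.03 for Ncf1, neither past the test, whereas each LPS/IFNγ value of Padi4 was under each untreated one. Capitals mark interferon-stimulated response elements (ISRE, GAAANNGAAA) and the gamma-activated sequence (GAS, TTCNNNGAA), searched on both strands, and the Padi4 window, with no match, has none.
Cybb (chrX:9469325-9469574, minus strand): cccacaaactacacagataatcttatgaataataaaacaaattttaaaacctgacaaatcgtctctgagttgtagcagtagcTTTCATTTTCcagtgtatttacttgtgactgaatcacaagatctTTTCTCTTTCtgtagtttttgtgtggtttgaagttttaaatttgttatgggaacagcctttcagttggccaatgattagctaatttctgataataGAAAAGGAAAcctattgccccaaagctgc
Ncf1 (chr5:134229626-134229875, minus strand): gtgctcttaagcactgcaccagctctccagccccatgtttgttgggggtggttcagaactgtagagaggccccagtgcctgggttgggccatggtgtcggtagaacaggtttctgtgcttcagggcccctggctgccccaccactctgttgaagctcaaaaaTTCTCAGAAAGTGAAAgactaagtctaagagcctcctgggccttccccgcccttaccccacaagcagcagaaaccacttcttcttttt
Padi4 (chr4:140774204-140774453, minus strand): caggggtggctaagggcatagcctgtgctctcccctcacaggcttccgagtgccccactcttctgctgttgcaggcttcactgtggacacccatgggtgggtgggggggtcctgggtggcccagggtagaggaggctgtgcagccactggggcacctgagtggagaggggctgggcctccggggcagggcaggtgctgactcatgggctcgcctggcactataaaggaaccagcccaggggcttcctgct
The Cybb window, whose start lies inside the longer gene span above, held 3 ISRE matches, beginning 168, 124 and 29 bases before the start. The Ncf1 window held 1 ISRE match at 82 bases and 1 GAS match at 88 bases before the start, and these share 3 bases. Padi4 and Cyba held neither. An ISRE match was found in 2.97% and a GAS match in 7.01% of the 32817 promoter windows of the table, so both are descriptions of these windows and not binding sites. The looser NF-κB type pattern (GGGNNNNNCC) was present in 4 of 4 windows and in 45.8% of all windows. No member window held the PU.1 type GAGGAA (23.3% of all windows), the STAT6 type TTCNNNNGAA (5.85%) or the C/EBP type TTGCNNAA (9.57%). Only these exact letters were searched. The shorter ETS core GGAA was not, and it can be read in the Cybb and Padi4 windows shown.

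In untreated neutrophils the 8 genes were among the more abundant transcripts. Of 18296 genes above 0 RPKM in untreated libraries, Ncf1 ranked 42nd with 551 ± 26.4 RPKM (SD, n = 4), Cybb 63rd with 420.0 ± 55.2, Rac2 73rd with 376 ± 5.01, Cyba 198th with 187 ± 7.68, Ncf4 219th with 175 ± 12.3, Padi4 286th with 129 ± 6.33, Rac1 581st with 68.3 ± 2.07 and Hvcn1 786th with 53.3 ± 5.26. Rac2, the Rac that blood cells express and that serves the oxidase in mouse neutrophils, thus stood above the ubiquitous Rac1 in each library. Libraries held 18748634 to 30925209 mapped reads, recovered from the steps of the RPKM values, and a member was covered by 1342 (Hvcn1) to 73783 (Cybb) reads in a library, with the reads of Ncf4 and Rac2 approximate because they did not come out whole with the exon length used.

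**Figure D1:**
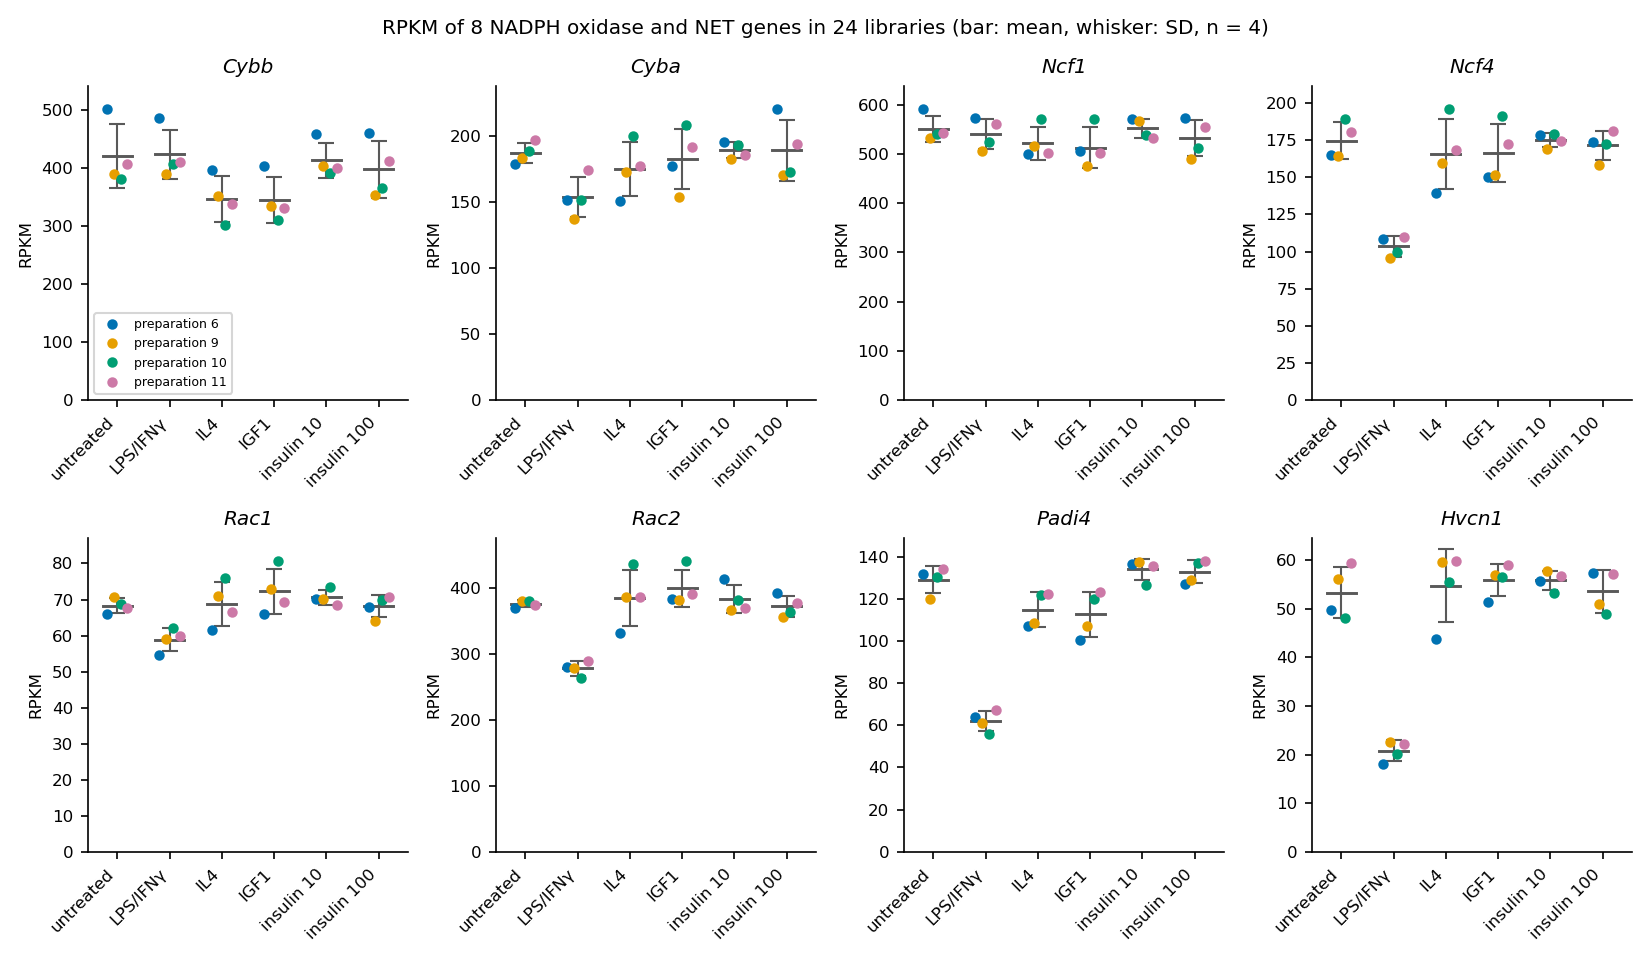
RPKM of the 8 genes in each of the 24 libraries, with the 6 groups on the x axis, points coloured by preparation number, a bar for the mean and whiskers for the SD of 4 libraries. Padi4, Hvcn1, Ncf4 and Rac2 sit lower in the 4 LPS/IFNγ libraries than in the other 20, and Cybb with IL4 and IGF1 lies under its untreated value within each colour.

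The libraries came in 4 series of 6, one library of each group per series, with the numbers 6, 9, 10 and 11 in the file headers. These numbers are called preparations here, and whether a number marks a mouse or a library batch cannot be told apart. All 13 of 13 neutrophil markers were at or above 1 RPKM in untreated libraries, with a summed level of 107471 to 121501 RPKM untreated and 90890 to 109528 RPKM with LPS/IFNγ. Outside LPS/IFNγ, erythroid markers differed by preparation (5224 to 6162 RPKM in preparation 9 and 614 to 679 RPKM in preparation 11), as did B lineage markers (284 to 304 RPKM in preparation 9 and 116 to 130 RPKM in preparation 10). In the LPS/IFNγ libraries of the same preparations, erythroid markers were at 4590 and 596 RPKM and B lineage markers at 237 and 97.9 RPKM, each below those ranges. Not every marker list was lower with LPS/IFNγ. Eosinophil markers summed to 2111 to 2375 RPKM untreated and to 2002 to 2803 RPKM with LPS/IFNγ, and their part in the values of the 8 genes was not tested. In bulk libraries fewer cells of a type and less RNA per cell cannot be told apart. RPKM values with LPS/IFNγ were also lower at large, with a median log2 change of -0.22 over all genes. The marker sums are not scaled for that shift, and its part in them was not tested.

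LPS/IFNγ was associated with lower RNA levels of the genes for the proton channel, PAD4 and the p40phox subunit. The log2 RNA changes of the genes for the catalytic subunit and the organizer were 0.02 and -0.03 and did not pass the test. Protein was not part of these data. With a call defined as a limma adjusted p under 0.05, over all genes tested, and at least a 1.5-fold change, 3 of 8 members were called lower and 0 higher, against 17.8% of 13062 genes called lower and 8.15% called higher in the same comparison. The median log2 change of the 8 members was -0.36, beside -0.22 over all genes tested. A total of 6 members had an adjusted p under 0.05 and were lower (37.6% of all genes), although Rac1 turned positive with the median-of-ratios scaling described later. Each of the 6 had groups that did not overlap, as had 35.8% of all genes in that direction. 

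Hvcn1 was measured at 49.8, 56.0, 48.1 and 59.3 RPKM in untreated libraries. With LPS/IFNγ its level was 18.0, 22.6, 20.1 and 22.3 RPKM, in the same order of preparations (6, 9, 10 and 11 here and below). The highest treated library was thus under the lowest untreated one, and the log2 change was -1.36 ± 0.09 (SE, limma adjusted p = 2.6e-06), or 2.57-fold lower. Padi4 was at 132, 120.1, 131 and 134 RPKM untreated. It was at 64.0, 61.1, 55.9 and 67.2 RPKM with LPS/IFNγ. Again no library overlapped, with a log2 change of -1.06 ± 0.07 (limma adjusted p = 1.6e-06), or 2.08-fold lower.

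Ncf4, whose product binds the lipid PI3P on phagosomes, was at 165, 164, 189 and 180.4 RPKM untreated and at 108, 95.4, 99.9 and 110.0 RPKM with LPS/IFNγ. Its groups lay well apart (log2 change -0.75 ± 0.07, limma adjusted p = 1.7e-05). Rac2 was at 370.3, 379.9, 381 and 374 RPKM untreated and at 280.5, 278, 264 and 290.0 RPKM with LPS/IFNγ. Its change of -0.44 ± 0.05 (limma adjusted p = 5.4e-05) was under 1.5-fold and is therefore not a call, although the groups did not overlap. Cyba (-0.29 ± 0.07, limma adjusted p = 0.0092) and Rac1 (-0.21 ± 0.05, limma adjusted p = 0.0091) were also under 1.5-fold.

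Cybb was at 501, 390.4, 381 and 407 RPKM untreated and at 486, 389.9, 408 and 411 RPKM with LPS/IFNγ. These values interleave, and the log2 change was 0.02 with a 95% interval of -0.21 to 0.24 (limma adjusted p = 0.92). Ncf1 was at 591, 533, 539.7 and 542 RPKM untreated and at 572, 505, 525 and 559.8 RPKM with LPS/IFNγ. It too overlapped (log2 change -0.03, interval -0.16 to 0.11, limma adjusted p = 0.73). The log2 RNA changes of the oxidase subunit genes thus spanned -0.75 (Ncf4) to 0.02 (Cybb) in the same libraries.

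The median of all genes was itself -0.22 on the log2 scale with LPS/IFNγ, and scaling the libraries by the median of ratios moved that median by 0.23. Relative to the median of all genes, the changes were -1.13 for Hvcn1, -0.83 for Padi4, -0.53 for Ncf4, -0.21 for Rac2, -0.06 for Cyba, 0.01 for Rac1, 0.20 for Ncf1 and 0.24 for Cybb. After median-of-ratios scaling Hvcn1 (-1.11, limma adjusted p = 5.8e-06) and Padi4 (-0.81, limma adjusted p = 2.6e-05) remained called, and Ncf4 (-0.50, limma adjusted p = 0.0010) dropped under 1.5-fold. Cyba (-0.04) and Rac1 (0.04) were then near 0, with Rac1 changing its sign. Ncf1 was then 0.22 higher (limma adjusted p = 0.049) and Cybb 0.27 higher (limma adjusted p = 0.11), both under 1.5-fold. With that scaling the share of calls that were higher went from 31.4% to 55.2% of all calls. Against IL4 in place of untreated, LPS/IFNγ gave 3 members called lower, where 19.5% of 13082 genes were called lower. These were Hvcn1 (-1.39 ± 0.12), Padi4 (-0.89 ± 0.09) and Ncf4 (-0.67 ± 0.11), and Ncf4 again dropped under the threshold with median-of-ratios scaling (-0.38). Cybb was 0.29 ± 0.10 higher than with IL4 (limma adjusted p = 0.048), under 1.5-fold. With that scaling it was 0.58 higher (limma adjusted p = 0.0087), just under 1.5-fold. Dendritic cell markers summed to 17.9 to 22.1 RPKM with LPS/IFNγ and to 3.44 to 4.49 RPKM untreated, with the interferon-inducible Bst2 reaching 20.0 RPKM. Monocyte and macrophage markers summed to 44.5 to 72.5 RPKM and to 59.2 to 96.5 RPKM, respectively. For both of these marker lists, their part in the changes was not tested.

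**Figure D2:**
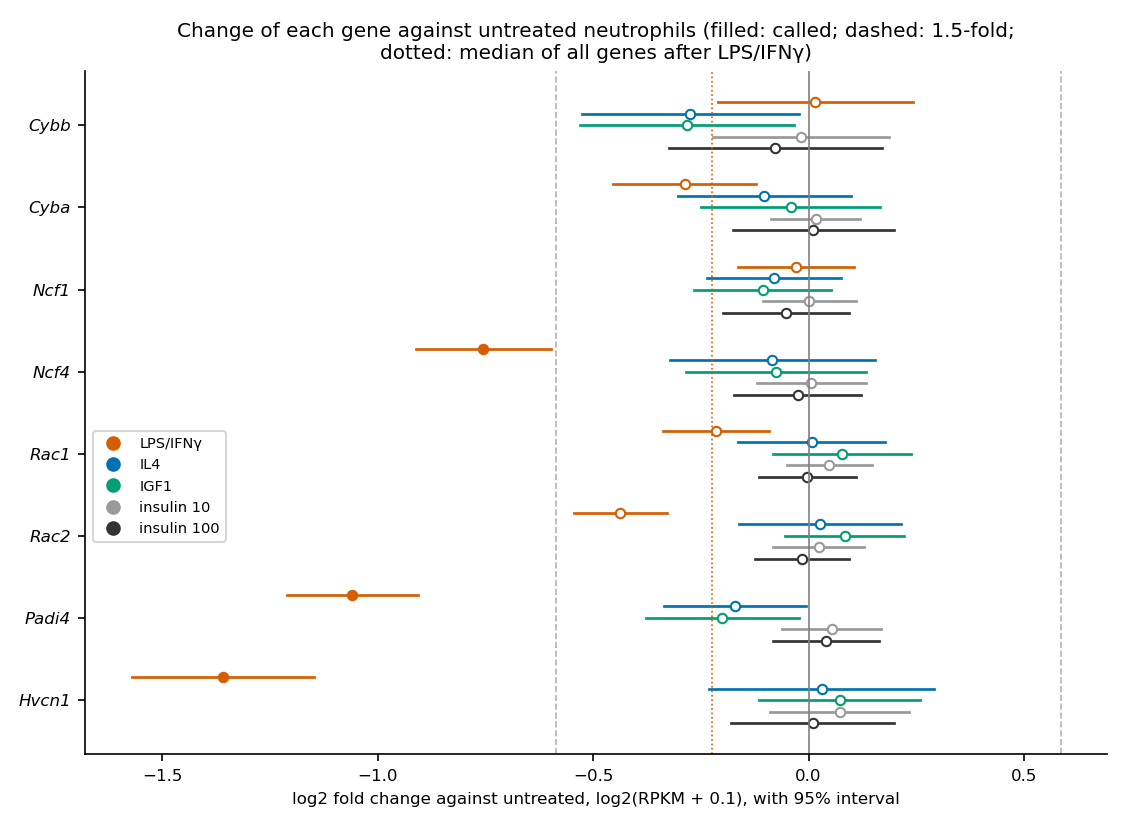
Log2 fold change against untreated (x axis, log2 of RPKM + 0.1) of each of the 8 genes, with 95% intervals from limma, for 5 treatments in colours; filled points are calls. Hvcn1, Padi4 and Ncf4 with LPS/IFNγ are the filled points, and the insulin intervals all include 0.

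With IL4 and with IGF1 no member was called, while 1.66% of 13097 genes and 1.63% of 13093 genes were, with 97.2% and 96.7% of those calls higher. Both comparisons use the same 4 untreated libraries. In each, 2 of 8 members had an unadjusted p under 0.05 in limma, Cybb and Padi4, both lower. Cybb was at 396, 352, 301 and 338 RPKM with IL4 and at 403, 335, 309.8 and 332 RPKM with IGF1. Each of these 8 libraries was below the untreated library of its own preparation, with changes of -9.86% to -21.02% with IL4 and of -14.3% to -19.6% with IGF1. The groups as a whole overlapped because preparation 6 was high throughout, at 396 to 501 RPKM. The log2 change was -0.27 ± 0.11 with IL4 (limma adjusted p = 0.46) and -0.28 ± 0.11 with IGF1 (limma adjusted p = 0.38). With preparation as a block in the fit the adjusted p was 0.069 and 0.029, so that with IGF1 it passed the p threshold while the change remained under 1.5-fold and was not a call. Of all genes, 9.47% with IL4 and 10.2% with IGF1 were lower in each of the 4 preparations.

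Padi4 was at 107, 108, 122 and 122 RPKM with IL4 and at 101, 107, 119.8 and 123 RPKM with IGF1. It too was below its own untreated library in 4 of 4 preparations, with changes of -6.56% to -18.9% with IL4 and of -8.22% to -23.8% with IGF1. The log2 changes of -0.17 ± 0.07 (limma adjusted p = 0.48) and -0.20 ± 0.08 (limma adjusted p = 0.38) did not pass the threshold, nor did they with the block (adjusted p = 0.23 and 0.17). Hvcn1, which was so much lower with LPS/IFNγ, was at 43.9 to 59.9 RPKM with IL4 and at 51.3 to 59.1 RPKM with IGF1, against 48.1 to 59.3 RPKM untreated. Rac2 was the member whose 4 IGF1 libraries, at 383, 382, 441 and 391 RPKM, were above all 4 untreated ones, with a log2 change of 0.08 (limma adjusted p = 0.70). Groups apart in that direction were seen for 5.71% of all genes. Within preparations, Rac1 and Rac2 with IGF1 were each above their own untreated library in 4 of 4, as were 18.8% of all genes. The monocyte and macrophage marker list, 12 of 12 genes found and 6 at or above 1 RPKM, summed to 89.5 to 147 RPKM with IL4 and 87.01 to 149.7 RPKM with IGF1, against 59.2 to 96.5 RPKM untreated, led by Adgre1 at up to 91.9 RPKM, and its part in the Cybb and Padi4 values was not tested.

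**Figure D3:**
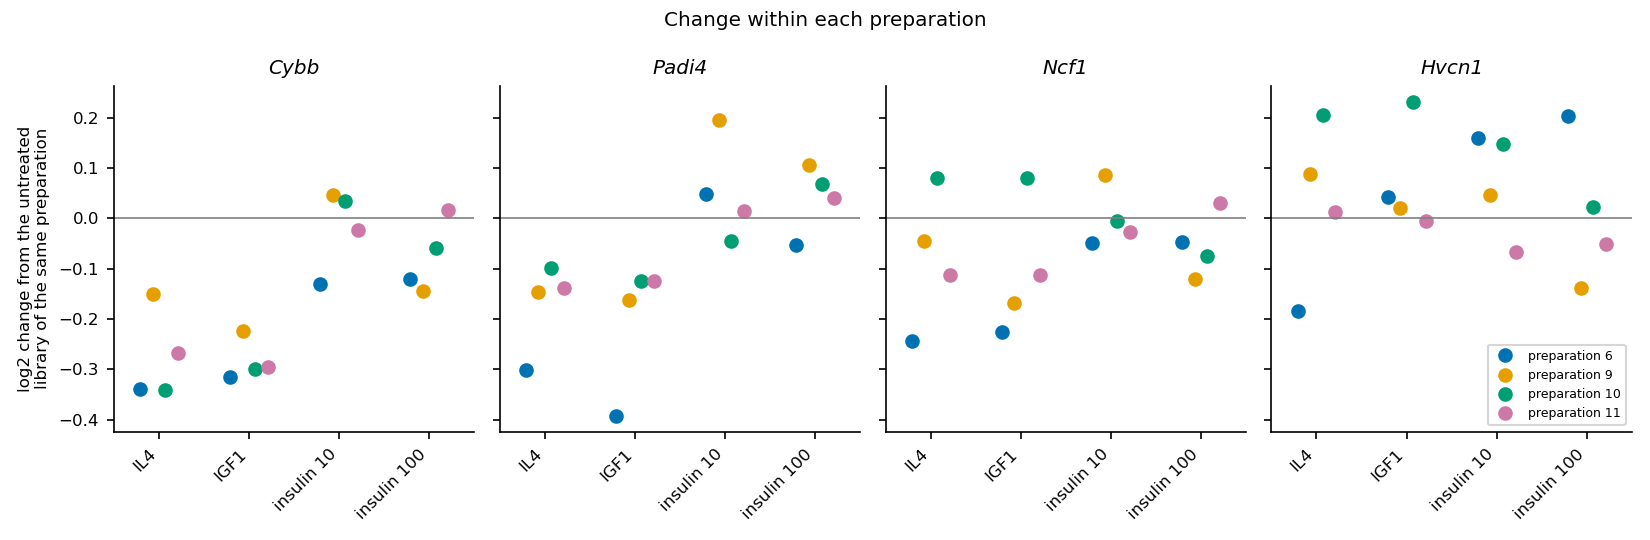
Log2 change from the untreated library of the same preparation (y axis) for Cybb, Padi4, Ncf1 and Hvcn1 with IL4, IGF1 and the insulin doses (10 and 100 ng/mL), one coloured point per preparation. The 4 points of Cybb and of Padi4 lie below 0 with IL4 and with IGF1 and on both sides of 0 with insulin.

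IGF1 and IL4 were compared directly, since both treatments gave like values for these genes. In limma 0 of 8 members were called, where 0.0% of 13080 genes were called, and 0 members had an unadjusted p under 0.05. The 95% intervals of the 8 differences ran from -0.27 to 0.33 on the log2 scale, with Cybb at -0.01 (-0.26 to 0.24) and Padi4 at -0.03 (-0.24 to 0.18). With 4 libraries a group, a difference within the interval of a gene remains possible for that gene.

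Insulin, which binds a receptor closely related to that of IGF1, gave 0 called members at either dose in limma, and 0.0% of 13055 genes at 10 ng/mL and 0.0% of 13108 genes at 100 ng/mL were called. No member had an unadjusted p under 0.05 at either dose. The intervals of the 8 log2 changes ran from -0.22 to 0.23 at 10 ng/mL and from -0.32 to 0.20 at 100 ng/mL, narrower than the 1.5-fold threshold. Cybb was at 458, 403, 391 and 401 RPKM with 10 ng/mL and at 461, 353, 366 and 412 RPKM with 100 ng/mL. Padi4 was at 136, 137, 127 and 136 RPKM with 10 ng/mL and at 127, 129, 137 and 138 RPKM with 100 ng/mL. Both genes overlapped their untreated values.

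Set against insulin at the same mass concentration of 10 ng/mL, IGF1 had its 4 Padi4 values below the 4 insulin values (log2 -0.25 ± 0.08, limma adjusted p = 0.23), as for 2.13% of 13059 genes in that direction. Cybb was -0.27 ± 0.09 (limma adjusted p = 0.32, and 0.028 with preparation as a block) and below insulin in 4 of 4 preparations, as were 11.4% of all genes. Against 100 ng/mL the values were -0.24 ± 0.08 for Padi4 (limma adjusted p = 0.25), again without overlap, as for 3.44% of 13124 genes, and -0.21 ± 0.11 for Cybb (limma adjusted p = 0.50). At this dose too Cybb was below insulin in 4 of 4 preparations, as were 12.5% of all genes. No member was called against either dose, while 1.43% and 1.52% of all genes were. These comparisons use the same IGF1 libraries as the comparison with untreated.

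Across the 6 groups a limma F test found 5 of 8 members different (Ncf4, Rac1, Rac2, Padi4 and Hvcn1), where 44.4% of 14272 genes were. Cybb (adjusted p = 0.051), Cyba (0.076) and Ncf1 (0.63) did not pass in limma. With preparation as a block Cybb (adjusted p = 7.6e-06) and Cyba (0.033) passed as well, which gave 7 of 8 members where 55.9% of all genes passed. Without the 4 LPS/IFNγ libraries 0 of 8 members passed in limma (3.55% of 14038 genes did), the lowest adjusted p being 0.058 for Padi4. In the remaining 5 groups the block left Cybb (adjusted p = 0.00046) and Padi4 (0.0064), 2 of 8 members, where 10.5% of genes passed in limma.

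Treatment and preparation shared the variation of the genes unevenly. For Padi4 95.7% and for Hvcn1 95.1% of the variance of log2 values over 24 libraries lay between treatments, and 1.55% and 2.41% between preparations. For Cybb the shares were 46.3% and 47.3%. Preparation 6 gave Cybb a mean of 451 RPKM and preparation 10 a mean of 359 RPKM. Ordered by mean, the neighbouring groups of Cybb lay within 1 SD of each other except for the step from insulin at 100 ng/mL (398 RPKM) to IL4 (347 RPKM). Padi4 had steps beyond the SD from untreated (129 RPKM) to IL4 (115 RPKM) and from IGF1 (113 RPKM) to LPS/IFNγ (62.1 RPKM). In Hvcn1, Ncf4, Rac1, Rac2 and Cyba the step to LPS/IFNγ, the lowest group, was the only one beyond the SD, and Ncf1 had none.

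Ratios within a library do not depend on how libraries are scaled. Rac2 stood to Rac1 at 5.51 ± 0.11 in untreated libraries and at 4.74 ± 0.38 with LPS/IFNγ (SD, n = 4), and the highest LPS/IFNγ ratio of 5.15 was under the lowest untreated ratio of 5.36. The log2 difference was -0.22 (exact two-sided permutation p = 0.029, the smallest that 70 arrangements allow), and with 10 ratio comparisons made the adjusted value was 0.29. Cybb stood to Cyba, the pair that forms the cytochrome, at 2.25 ± 0.37 untreated and at 2.77 ± 0.35 with LPS/IFNγ, and these overlapped (log2 0.30, exact permutation p = 0.086, adjusted 0.43). The other 8 comparisons had exact permutation p values of 0.29 to 0.94.

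**Figure D4:**
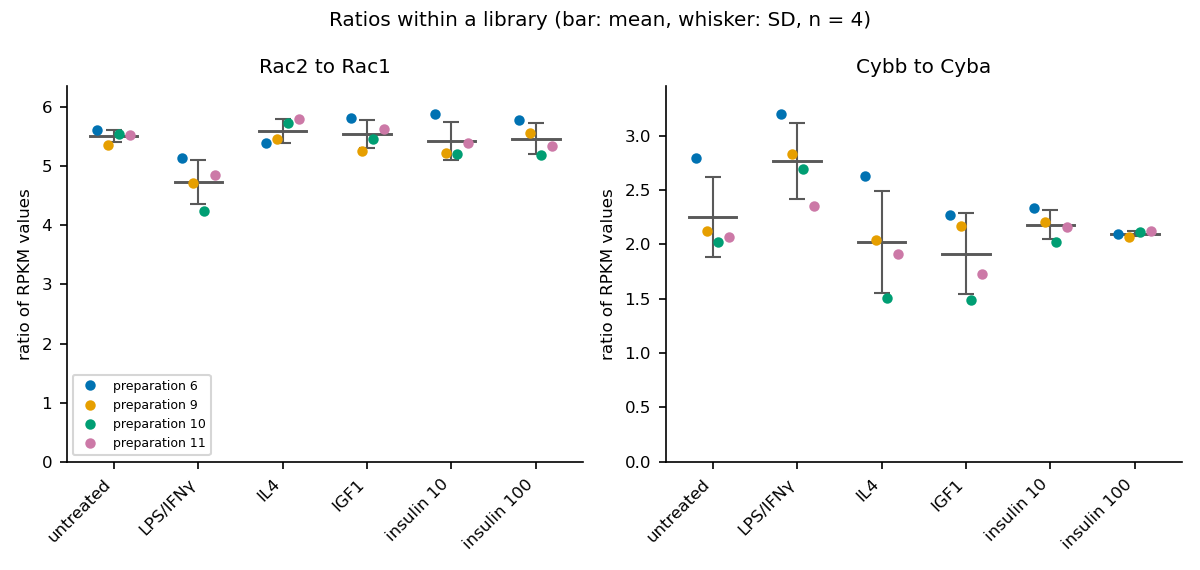
Ratio of RPKM values within each library for Rac2 to Rac1 and for Cybb to Cyba (y axes from 0), by group, with preparation colours, a bar for the mean and whiskers for the SD of 4 libraries. The Rac2 to Rac1 ratio of the LPS/IFNγ libraries lies at 4.24 to 5.15 and that of the untreated libraries at 5.36 to 5.62.

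For each gene the 3 genes most like it were taken by Pearson correlation of log2 values over the 24 libraries, among 9296 genes. The libraries share preparations and the LPS/IFNγ group sits apart, so r is a description. Padi4 was most like Alox5 (0.99), Arhgap4 (0.98) and Grn (0.98), and Hvcn1 most like Sipa1, Rin3 and Mbp (each 0.99). Rac2 went with Sh3bgrl3 (0.99), Plp2 (0.98) and Cdk2ap2 (0.97), Ncf4 with Myl12b, Shkbp1 and Ptpn7 (each 0.98), and Rac1 with Cdk2ap1 (0.96), Ppp1cc (0.95) and Slc9a3r1 (0.94). Cyba was most like the actin regulators Coro1a (0.91) and Cfl1 (0.89) and the surface protein gene Cd52 (0.93). Cybb had Ly75 (0.87), Tnfsf13b (0.84) and the granule protein gene Ngp (0.82), and Ncf1 had the intermediate filament gene Vim (0.86), Rnaset2b (0.78) and Bin3 (0.78). Without LPS/IFNγ the r of Hvcn1 with its 3 genes was 0.61 to 0.75 and that of Cybb with its 3 genes was 0.79 to 0.88. Among the members themselves, Ncf4 and Padi4 had r = 0.95 over 24 libraries and 0.63 without LPS/IFNγ, while Padi4 and Hvcn1 had 0.93 and 0.14.

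Other genes of the oxidase and of NET formation were read from lists. Of the other oxidase genes reported, 2 of 12 were tested after LPS/IFNγ and 0 were called in limma. BC017643, the chaperone of the cytochrome, was at 14.9 RPKM with LPS/IFNγ and 15.6 RPKM untreated (log2 -0.06, limma adjusted p = 0.40), and Rac3 was near 0.1 RPKM.

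Of 34 tested regulators of the oxidase, 1 rose and 9 fell with LPS/IFNγ (2.94% and 26.5% of the list), beside 8.15% and 17.8% of all genes, with a list median of -0.31 beside -0.22 over all genes. Those that fell included Pik3cg, the catalytic subunit of PI3Kγ (27.0 ± 2.167 against 79.99 ± 2.31 RPKM, log2 -1.57), the kinase gene Akt1 (-1.05), the phospholipase C gene Plcb2 (-1.23) and Prex1, an exchange factor that activates Rac (-0.83). The one that rose was Pla2g4a, the cytosolic phospholipase A2 (6.89 ± 0.69 against 3.73 ± 0.29 RPKM, log2 0.86). With median-of-ratios scaling the counts were 3 and 7 of 34, beside 11.6% and 9.45% of all genes, and Prex1 was no longer among those called lower.

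Of 34 tested genes tied to NETs, 9 rose and 7 fell with LPS/IFNγ (26.5% and 20.6% of the list), beside the same 8.15% and 17.8% of all genes. The share that fell and the list median of -0.24 were thus near those of all genes. Trex1, a cytosolic DNA exonuclease, went from 3.10 ± 0.40 to 110.0 ± 7.25 RPKM (log2 5.11). Also called higher were Casp1, the inflammasome protease (log2 3.05), Mlkl, the effector of necroptosis (2.66), and Ripk1, a kinase of cell death signalling (1.31). Those that fell included Dnase1l1, a DNase 1-like gene (-1.48), the autophagy gene Atg7 (-0.88), the gelatinase gene Mmp9 (1140.4 ± 56.9 to 616 ± 55.8 RPKM, -0.89) and the kinase gene Sgk1 (-0.70). With scaling the counts were 11 and 4 of 34, beside 11.6% and 9.45% of all genes, and Sgk1 was no longer among those called lower. Each of these genes named as rising or falling had a limma adjusted p of 4.1e-05 or less. Mpo, Elane, Prtn3 and Ctsg, other granule genes of the list, were not called, unlike Mmp9.

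**Figure D5:**
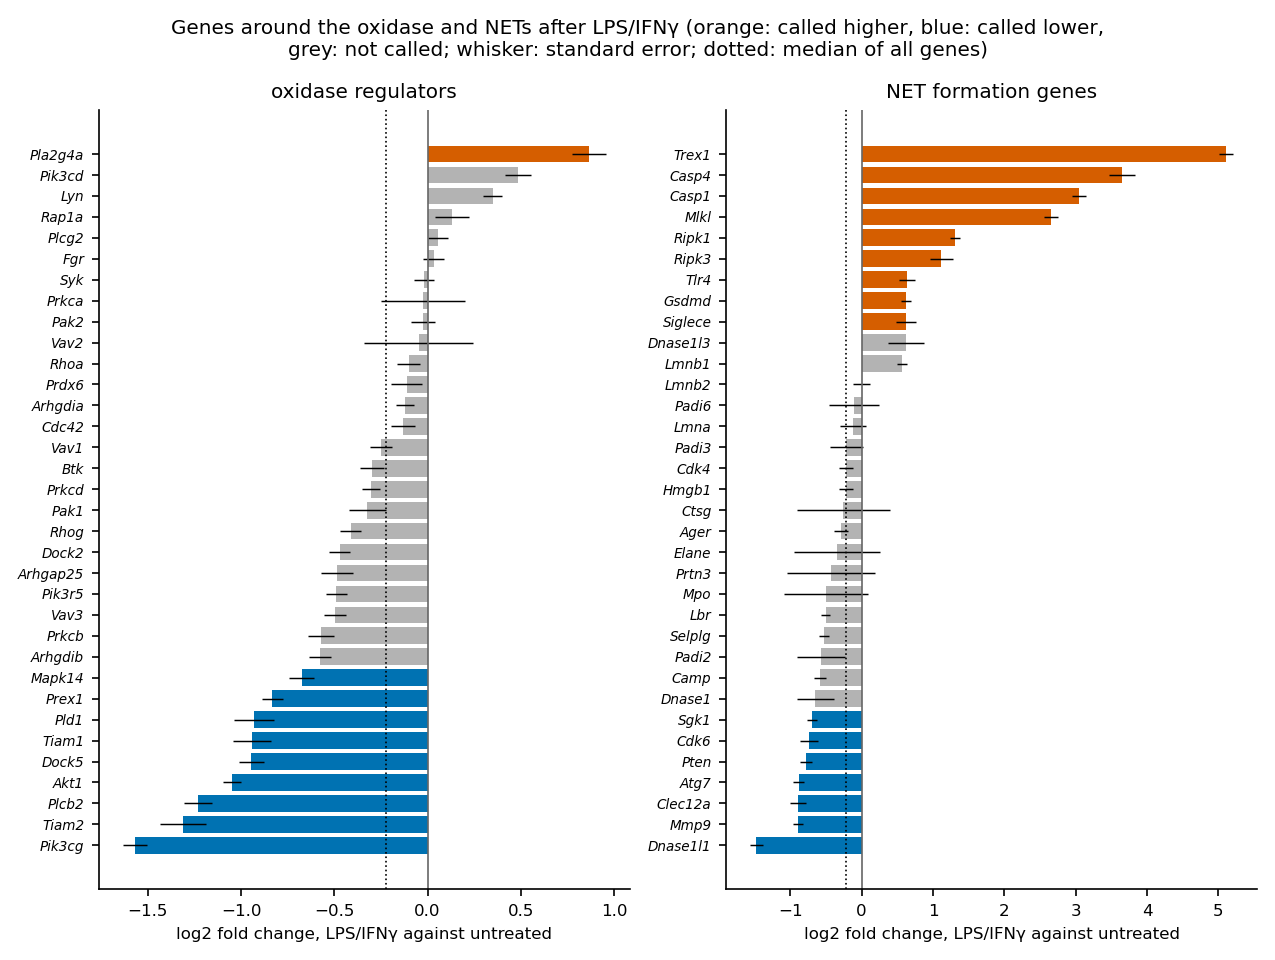
Log2 fold change with LPS/IFNγ against untreated (x axis) of 34 oxidase regulators and 34 genes tied to NETs, with standard errors as whiskers; orange bars are calls higher, blue bars calls lower, grey bars not called and the dotted line the median of all genes. Blue bars outnumber orange bars among the regulators (9 and 1), and Trex1 has the longest bar.

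Against IL4, LPS/IFNγ gave 1 higher and 11 lower regulators and 8 higher and 7 lower genes tied to NETs, where 7.66% of all genes were called higher and 19.5% lower. The 7 of 34 genes tied to NETs called lower were near that share. In the comparisons of IL4, IGF1 and insulin with untreated, and of IGF1 with IL4 and insulin, 0 genes of the lists were called in limma.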

How the data were processed

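RNA of 24 libraries of mouse neutrophils was sequenced as single reads after a stranded mRNA kit. The authors trimmed the reads, mapped them to GRCm38 with CLC Genomics Workbench after bcl2fastq 2.17.1.4, and deposited RPKM values per gene for each library. Mapped reads (18748634 to 30925209) were recovered as the totals at which RPKM values turn into whole reads, for 69.9% to 70.6% of genes with the GENCODE M21 length. A pseudocount of 0.1 was added before log2. limma 3.58.1 (R 4.3.3, statmod 1.5.0, trend and robust) tested the genes that reached 0.1 RPKM in 4 of the 8 libraries compared, with Benjamini-Hochberg adjustment over all genes tested. A call needs an adjusted p under 0.05 and a 1.5-fold change. A log2 change with this pseudocount understates that of low genes.

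Comparisons numbered 9, namely 5 treatments against untreated, IGF1 against IL4 or an insulin dose, and LPS/IFNγ against IL4. Headers carry a preparation number. Over 14272 genes, deviations of 60 library pairs with the same number correlated at 0.182 to 0.683, and those of 216 other pairs at no more than 0.141, so the numbers pair the libraries. Nothing ties each number to one animal, so p-values measure the spread between these libraries, part of which may be technical. Genes named besides the 8 were, per list and direction, up to 4 calls with the smallest adjusted p, the 3 most correlated genes, and overlapping or same-family genes. Named outside that rule were Bst2 and Adgre1, from the marker lists, and the granule genes Mpo, Elane, Prtn3 and Ctsg. Listed Cybc1 (present under the older symbol BC017643) and Gsdme were not analysed here under those names, and 2 other listed genes are not reported here. The members and lists were chosen with earlier results of these data known. Fits were tested on simulated data. Python 3.11.15, pandas 2.3.3, numpy 2.4.6 and matplotlib 3.10.9 were used.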

Additional observations from a re-analysis of the deposited data

Results flagged for a closer look

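Among the 48 combinations of the 8 genes and 6 groups, 3 held a library far from the other 3, where chance gives about 1 in 20. Ncf1 in the untreated library of preparation 6 was 591 RPKM, against 533 to 542 RPKM in the other 3. Rac2 in the IGF1 library of preparation 10 was 441 RPKM, against 382 to 391 RPKM. Padi4 in the insulin library of preparation 10 at 10 ng/mL was 127 RPKM, against 136 to 137 RPKM.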

How the results depend on the processing

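Of 72 gene results, 8 changed their call in some alternative. The 6 that were called kept their sign, while 31 others changed sign in some alternative, 12 of them with median-of-ratios scaling. Of the 31, only Rac1 with LPS/IFNγ against untreated had passed the p threshold (-0.21, and 0.04 scaled). With that scaling Ncf1 also went from -0.03 to 0.22 against untreated, and against IL4 Cyba went from -0.19 to 0.11 and Rac1 from -0.22 to 0.07. With no fold threshold 6 members, in place of 3, were counted for LPS/IFNγ against untreated, beside 6407 of 13062 genes. For LPS/IFNγ against IL4 5 members were counted, beside 5877 of 13082 genes, with Cybb higher and Ncf4, Rac2, Padi4 and Hvcn1 lower. A 2-fold threshold left 1 member against IL4, beside 1646 of 13082 genes. Without the 4 LPS/IFNγ libraries 0 members, in place of 5, differed across groups. With IL4 and IGF1 the members called were 0 in every alternative, also without preparation 10, chosen after seeing the data, as were the scaled and blocked list counts. The Rac2 to Rac1 log2 difference was -0.26 to -0.17 with a library left out. Its exact permutation p was 0.057 when an untreated library was left out and stayed under 0.05 when an LPS/IFNγ library was. As pairs in a replicate block the log2 difference was -0.22 with an exact p of 0.13, the smallest that 4 pairs allow. In the 9 comparisons the replicate block changed no call of the 8 genes. For LPS/IFNγ against untreated it gave 10 higher and 8 lower of 34 genes tied to NETs. With the block 3572 of 13062 genes were called in either direction, in place of 3387.

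Counts of all calls differed by over 1.5 times in these cases. For LPS/IFNγ against untreated 3387 became 2183 with a pseudocount of 1, 6407 with no fold threshold and 1538 at 2-fold. For LPS/IFNγ against IL4 3555 became 2307, 5877 and 1646. For IL4 against untreated 218 became 345 with the block, 542 with unadjusted p, 143 at 2-fold, 124 without preparation 10 and 118 or 140 without the IL4 library of preparation 9 or 11. For IGF1 against untreated 213 became 356, 550 and 139, and 138 or 140 without the IGF1 library of preparation 9 or 11. For IGF1 against insulin at 10 ng/mL 187 became 328, 507 and 121, and at 100 ng/mL 200 became 319, 624 and 133. For insulin against untreated 0 became 67 and 96 with unadjusted p, and 1 at 100 ng/mL with a pseudocount of 0.01 or without the library of preparation 10. For IGF1 against IL4 0 became 77 with unadjusted p and 1 with the block. The cause was not tested where the construction does not give it.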
